A study of Mus musculus with 14 samples.

Results

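The axon guidance ligands and receptors are 70 genes of the 32926 symbols measured in cultured mouse small cell lung cancer (SCLC) cells. They were chosen by symbol, with earlier results of these data known, and divide into 35 ligands and 35 receptors. The ligands are 20 semaphorins, 8 ephrins, 3 slits and 4 netrins. The receptors are 9 plexins, 2 neuropilins, 14 Eph receptors, 4 roundabouts and 6 netrin receptors (Dcc, Neo1 and Unc5a to Unc5d). Of the 70 genes, 59 passed the filter on low counts in at least 1 comparison, and 11 passed it in none.

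Guidance cues steer growing axons, and the same proteins act on migration, adhesion and vessel growth outside the nervous system. Secreted class 3 semaphorins bind neuropilins, which signal through A-type plexins, while membrane-bound semaphorins bind plexins directly. Ephrins sit on the cell surface and bind Eph receptor tyrosine kinases on the next cell, A-type ephrins mostly EphA and B-type ephrins mostly EphB receptors. Slits bind roundabouts, and netrins bind DCC, neogenin and the UNC5 receptors. Neuroendocrine lung tumour cells express many neuronal genes, and SCLC cells can lose this program and take on a non-neuroendocrine state in which the coactivator YAP is present.

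RNA came from cell lines of lung tumours of adult mice of mixed strain. Per the labels all lines carry CGRPCreER/+, a Cre expressed from the CGRP gene of neuroendocrine cells, together with Rbf/f, P53f/f and Ptenf/f, and the mice had been injected with TM. The 6 groups were NE (n = 3), Non-NE (n = 3) and YAP5SA at days 0, 3, 7 and 21 (n = 2 each). The YAP5SA cells also carry Rosa26rtTA and Tet-onYAP5SA, a switchable form of YAP that resists inactivation by the Hippo kinases. The labels name neither the agent that switched it on nor how many mice or lines stand behind a group, so p-values measure the spread between these libraries, which may be technical. The number after P in the genotype field of 6 libraries differed from their source text (P53), and the text of day 0 replicate 1 listed no transgene, unlike the other 7 YAP5SA libraries.

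Libraries held 6730816 to 10659524 counts, and 59 to 65 of the 70 genes had at least 1 count in a library. NE replicate 2 did not exceed day 0 replicate 1 in any of the 32926 symbols and held 85.7% of its total, with gene counts that departed from that fraction only as sampling would (chi-square per gene 1.02). The 2 libraries were therefore taken to share reads and NE and day 0 not to be independent, and the changes from NE and from day 0 are set side by side below without a test of their likeness. Yap1 stood at 19.2, 8.20 and 11.6 CPM in NE and 135, 257 and 226 CPM in Non-NE libraries, and at 7.87 and 7.13 CPM at day 0, 1233 and 1063 at day 3, 734 and 793 at day 7, and 207 and 219 at day 21, transgene and endogenous counts together. CPM values are counts relative to library size, with sizes adjusted by TMM (the trimmed mean of M-values). Where all libraries of a group were at 0, the upper limit taken was 3 counts summed over them, 0.104 to 0.152 CPM, and floors and intervals cover counting error only.

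Neuroendocrine markers summed to 2718 to 4066 CPM in NE and 58.8 to 418 CPM in Non-NE libraries, and epithelial markers to 2123 to 2979 and 5.29 to 36.2 CPM. In YAP5SA cells neuroendocrine markers summed to 3979 to 4183 CPM at day 0 and 753 to 770 CPM at day 21. Epithelial markers summed to 2980 to 3083 CPM at day 0 and 3864 to 4041 CPM at day 21, far above Non-NE. Among them Krt19 went from 3.84 and 3.98 to 853 and 953 CPM, and Cdh1 from 867 and 901 to 1250 and 1252. Epcam went the other way, from 847 and 835 to 439 and 450 CPM, and Krt8 and Krt18 moved less. The 9 fibroblast and mesenchymal markers summed to 3.09 to 8.20 CPM among NE libraries, 18732 to 30596 CPM in Non-NE (Thy1 at 0) and 65.7 to 74.7 CPM at day 21. The 8 endothelial markers, of cells that use many guidance genes, summed to 214 to 389.7 CPM among NE libraries, 0.611 to 2.55 in Non-NE, 366 to 380.2 at day 0 and 114 to 139 at day 21. Nearly all of it was Vwf (213 to 389 CPM in NE), while Cldn5 was at 0 in every library and Cdh5 in all but the day 21 libraries. Leukocyte markers summed to 1.94 to 2.44 CPM at day 0, 60.9 to 64.5 at day 7 and 112 to 135 at day 21, where Ptprc was at 0 and Csf1r (103 and 126 CPM at day 21) made up most. The Schwann and glial markers, with Sox10 at 0 throughout, summed to 243 to 293 CPM in NE and 5.29 to 23.6 in Non-NE, and neuron markers to 724 to 769 and 113 to 511 CPM. The part of all these lists in the guidance gene differences was not tested. In bulk RNA, fewer cells that express a gene and less RNA per cell cannot be told apart.

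Promoter windows are shown for 4 genes because YAP reaches DNA through TEAD factors, whose core site is GGAATG, and because these genes changed with YAP5SA below; the 4 were picked after their values were seen. Sequences are the 250 bases before the RefSeq start on GRCm38.p6, 5′ to 3′ on the gene's strand in lower case, with a core match on either strand in capitals. Epha2 (chr4:141300971-141301220, plus strand), an Eph receptor that rose to day 7, held a match 243 and another 56 bases before the start, both on the opposite strand. Epha1 (chr6:42373269-42373518, minus strand), which rose at every step, held a match 161 bases before the start. Plxnd1 (chr6:115995006-115995255, minus strand), a semaphorin receptor that fell, held a match 173 bases before the start. Sema7a (chr9:57939862-57940111, plus strand), a semaphorin that rose, held none.
Epha2: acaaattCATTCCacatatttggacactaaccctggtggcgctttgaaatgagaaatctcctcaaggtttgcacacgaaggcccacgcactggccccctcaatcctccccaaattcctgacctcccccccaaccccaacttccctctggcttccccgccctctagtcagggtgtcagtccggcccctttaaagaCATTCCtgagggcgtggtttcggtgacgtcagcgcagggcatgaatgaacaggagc
Epha1: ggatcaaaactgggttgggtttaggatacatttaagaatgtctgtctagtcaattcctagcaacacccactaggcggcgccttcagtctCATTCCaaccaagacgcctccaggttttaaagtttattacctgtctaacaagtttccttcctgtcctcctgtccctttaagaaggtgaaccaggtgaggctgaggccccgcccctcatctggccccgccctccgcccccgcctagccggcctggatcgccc
Plxnd1: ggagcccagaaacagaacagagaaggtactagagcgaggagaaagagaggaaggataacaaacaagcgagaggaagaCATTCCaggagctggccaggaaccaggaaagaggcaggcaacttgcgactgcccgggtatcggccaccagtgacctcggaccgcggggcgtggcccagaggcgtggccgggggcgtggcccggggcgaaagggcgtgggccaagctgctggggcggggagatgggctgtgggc
Sema7a: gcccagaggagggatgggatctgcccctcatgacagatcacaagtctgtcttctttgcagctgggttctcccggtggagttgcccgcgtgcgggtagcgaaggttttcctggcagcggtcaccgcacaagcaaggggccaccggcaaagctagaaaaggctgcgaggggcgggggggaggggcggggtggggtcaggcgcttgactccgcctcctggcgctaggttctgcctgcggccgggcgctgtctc
Windows were found for 60 of the 70 genes, 76 windows in all, and 8 of them (10.5%) held GGAATG on either strand against 12.6% of all 32851 windows. Among genes that rose by day 21, 3 of 23 windows (13%) held it, and among genes that fell 2 of 17 (11.8%). At least 2 matches occurred in 1.02% of all windows and, among guidance genes, in that of Epha2 alone. A match describes these letters and is not a binding site.

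Between NE and Non-NE, some guidance genes were near 0 in 1 state, such as Ntn1 in NE and Unc5a in Non-NE. Others, such as Plxnb2, Neo1 and Ephb2, were present in both. With edgeR's quasi-likelihood test 32 of the 53 tested genes differed at an adjusted p of 0.05 (60.4%, against 42.8% of all 12966 genes tested), 18 of them higher and 14 lower in Non-NE. Among all genes 20% were higher and 22.8% lower. Genes near 0 in one state passed the filter through the other state, so these shares describe the genes tested and not all 70. The median log2 change of the 53 tested genes was 0.56 and their median size without sign 3.24, against -0.02 and 0.80 over all genes. Without NE replicate 2 the counts were 18 and 16, given without the share of all genes in that fit. Scaling by library totals moved the split of all calls from 46.7% to 33.9% higher, with the median of all genes at -0.28, and gave 17 and 14 guidance genes.

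**Figure D1:**
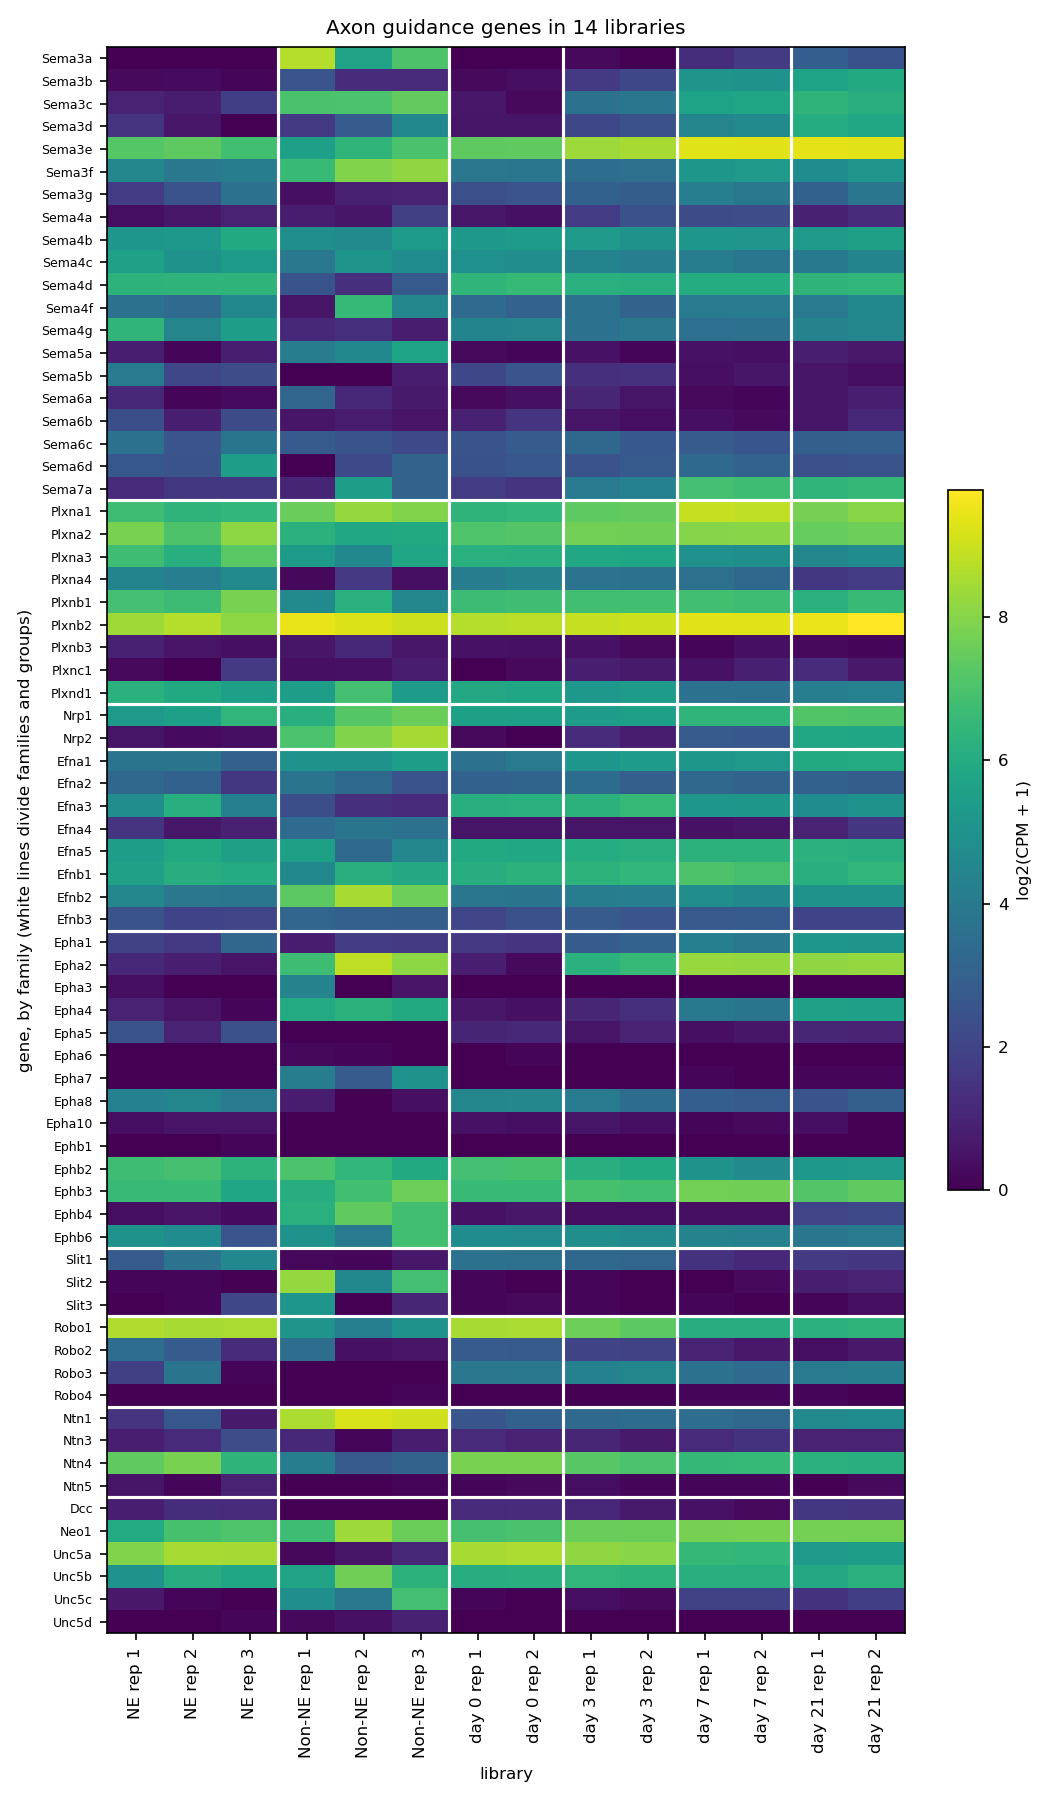
Heat map of log2(CPM + 1) of the 70 genes (rows, by family) in the 14 libraries (columns, by group); white lines part families and groups. Plxnb2 was bright in every library, while Nrp2, Ntn1, Slit2, Ephb4 and Epha2 were dark in NE and bright in Non-NE, and Unc5a was bright in NE and dark in Non-NE.

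In the YAP5SA series the tested genes numbered 55. At day 3, 22 were higher and 15 lower than at day 0 (67.3%, against 48.6% of all 13996 genes tested, 26.2% higher and 22.4% lower). At day 7, 28 were higher and 20 lower (87.3%, against 71%, 37.2% higher and 33.8% lower), and at day 21, 25 were higher and 15 lower (72.7%, against 71.7%, 37.7% higher and 34% lower), a share near that of all genes. From day 3 to day 7, 24 rose and 14 fell (69.1%, against 55.6%, 29.5% higher and 26.1% lower), and from day 7 to day 21, 21 rose and 16 fell (67.3%, against 50.3%, 26.1% higher and 24.2% lower). With day 0 replicate 1 left out, because its label names no transgene, the counts were 16 and 14 at day 3, 26 and 18 at day 7, and 27 and 15 at day 21. With all 14 libraries in one fit, which takes in the larger spread of NE and Non-NE, 5 genes were higher and 1 lower at day 3 and 16 were higher and 9 lower at day 7. Calls over all genes fell in that fit too and are given further below. No share of all genes is set beside the counts without day 0 replicate 1. Scaling by library totals put 40.4% in place of 52.4% of all calls on the higher side at day 7 (27 and 21 guidance genes) and 38.2% in place of 53% from day 3 to day 7 (22 and 17). It moved the median of all genes to -0.17 at day 7, -0.12 from day 3 to day 7 and -0.12 at day 21, from 0.03, 0.02 and 0.02.

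**Figure D2:**
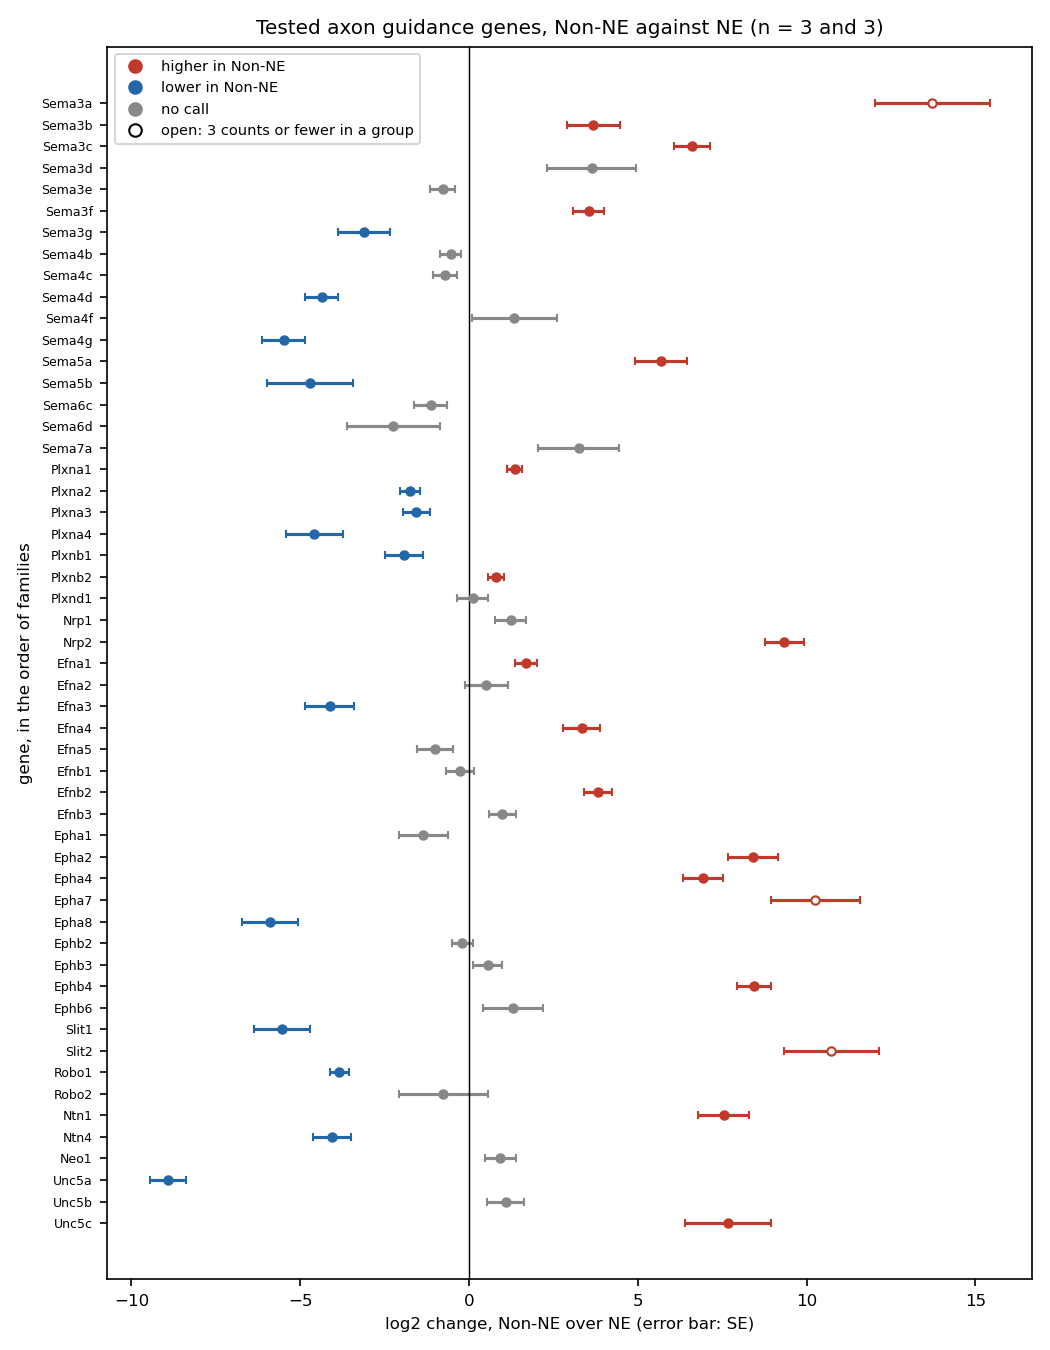
Log2 change of the 53 tested genes between Non-NE and NE (points, with SE bars; n = 3 and 3), by family from top to bottom; open circles mark genes with 3 counts or fewer in a group, whose fitted change is no bound. The 18 higher and 14 lower calls lie on either side of 0, with Unc5a at -8.93 farthest to the left.

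Class 3 semaphorins, the secreted repellents, were higher in Non-NE in 4 of 7 and lower in 1, and all 7 rose by day 21. Among all genes tested 20% were higher and 22.8% lower in Non-NE, and 37.7% were higher at day 21. Summed per kilobase of exon, which allows levels to be compared between genes, they stood at 20.1 ± 1.63 CPM per kb in NE and 85.1 ± 17.7 in Non-NE. At day 0 they summed to 21.5 ± 0.221 CPM per kb and at day 21 to 109 ± 0.275. The gene behind the sum differed: Sema3e made up 65.5% ± 1.49 of it at day 21 and 74.4% ± 7.42 in NE, while Sema3f, at 46.1% ± 18.0, led in 2 of the 3 Non-NE libraries and Sema3a in the other.

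Sema3a, a ligand of neuropilin-1, had 0, 0 and 0 CPM in NE and 411, 50.9 and 132 CPM in Non-NE libraries. All NE libraries were at 0, and the Non-NE libraries differed widely among themselves. Sema3a was at least 1688-fold higher in Non-NE (adjusted p = 0.00343), at least 909-fold without Non-NE replicate 1, and at least 1083- to 1154-fold without an NE library. Over the days it had 0 and 0 CPM at day 0, 0.194 and 0 at day 3, 1.42 and 2.13 at day 7, and 6.67 and 4.46 at day 21. It was present from day 7 on and at least 39.9-fold higher at day 21 than at day 0 (adjusted p = 7.16e-10), at least 20.1- and 19.8-fold against either day 0 library alone.

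Sema3b, whose human counterpart lies in a region often lost in lung cancer, had 0.193, 0.219 and 0.106 CPM in NE and 4.96, 1.34 and 1.27 CPM in Non-NE libraries. Low in both states, it was still 12.9-fold higher in Non-NE (log2 change 3.69, SE 0.79, adjusted p = 0.00921), 6.98-fold without Non-NE replicate 1, and it failed the count filter without NE replicate 1 or without Non-NE replicate 2 or 3. The days gave 0.187 and 0.278 CPM at day 0, 2.14 and 3.31 at day 3, 32.6 and 30.6 at day 7, and 50.1 and 60.7 at day 21. It rose 229.6-fold by day 21 (log2 change 7.84, SE 0.25, adjusted p = 3.07e-19), far above the Non-NE libraries.

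Sema3c, which binds both neuropilins, stood at 0.965, 0.656 and 2.56 CPM in NE and 124, 127 and 171 CPM in Non-NE libraries. Every Non-NE library lay above every NE library, 97.2-fold in the fit (log2 change 6.60, SE 0.53, adjusted p = 0.000164) and 166-fold without NE replicate 3. YAP5SA cells held 0.562 and 0.185 CPM at day 0, 11.6 and 13.1 at day 3, 49.7 and 53.4 at day 7, and 80.3 and 69.6 at day 21. Both libraries of each day exceeded those of the day before, and the rise to day 21 was 198-fold (adjusted p = 2.63e-20) or 385-fold without day 0 replicate 1.

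Sema3d, a further class 3 repellent, had 1.83, 0.547 and 0 CPM in NE and 2.15, 6.23 and 22.4 CPM in Non-NE libraries. The Non-NE libraries lay above NE but were widely spread, and the difference missed the threshold (log2 change 3.63, SE 1.32, adjusted p = 0.064). With YAP5SA it had 0.469 and 0.463 CPM at day 0, 3.40 and 4.41 at day 3, 21.04 and 23.8 at day 7, and 65.3 and 56.96 at day 21, a rise at each step that came to 130.0-fold at day 21 (adjusted p = 1.03e-19).

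Sema3e, which binds plexin-D1 without a neuropilin, led its class in every NE and YAP5SA library per kilobase, with 144, 162 and 113 CPM in NE and 44.8, 82.7 and 123 CPM in Non-NE libraries. Those groups overlapped and did not differ in the test (log2 change -0.78, SE 0.37, adjusted p = 0.135). From 164 and 166 CPM at day 0 it went to 324 and 362 at day 3, 622 and 638 at day 7, and 671 and 652 at day 21. The rise of 4.08-fold (adjusted p = 1.14e-17) was already seen at day 7, and the step after it was not called.

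Sema3f, a ligand of neuropilin-2, had 22.1, 14.2 and 16.1 CPM in NE and 95.7, 245 and 288 CPM in Non-NE libraries. It was 11.7-fold higher in Non-NE with no overlap (log2 change 3.54, SE 0.46, adjusted p = 0.00128). The YAP5SA libraries had 13.7 and 13.3 CPM at day 0, 10.6 and 11.1 at day 3, 35.5 and 38.4 at day 7, and 25.7 and 33.5 at day 21, and the rise to day 21 was smaller, 2.22-fold (adjusted p = 2.06e-08). Its step down from day 7 to day 21 (adjusted p = 0.0273) was lost without day 21 replicate 1 (adjusted p = 0.352), day 7 replicate 1 (0.0552) or day 7 replicate 2 (0.183). Sema3g, a class 3 member known from endothelium, went opposite ways: 8.63-fold lower in Non-NE (mean 0.714 against 6.24 CPM, adjusted p = 0.0167) and 2.26-fold higher at day 21 than at day 0 (10.3 against 4.61 CPM, adjusted p = 9.28e-05). The lower call ended without Non-NE replicate 1 (adjusted p = 0.0512) or replicate 2 (0.0527), and its size was 4.77-fold without NE replicate 3. From day 7 to day 21 Sema3g was lower (adjusted p = 0.0135), but not without day 21 replicate 1 (adjusted p = 0.325) or day 7 replicate 1 (0.181).

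Class 4 semaphorins are membrane proteins that signal through B-type plexins. Sema4d and Sema4g were lower in Non-NE and none of the 5 tested was higher, against 22.8% lower and 20% higher among all genes tested. Sema4d, the ligand of plexin-B1, held 78.6, 81.7 and 81.0 CPM in NE and 4.79, 1.47 and 5.73 CPM in Non-NE libraries. The NE values lay close together and all Non-NE values far below, 20.7-fold (log2 change -4.37, SE 0.49, adjusted p = 0.000728). In the days Sema4d had 82.7 and 92.3 CPM at day 0, 72.0 and 69.9 at day 3, 65.4 and 64.8 at day 7, and 81.3 and 85.2 at day 21, dipping 1.33-fold by day 7 (adjusted p = 8.31e-05) and rising 1.29-fold after it (adjusted p = 0.000735). At day 21 it overlapped day 0 (log2 change -0.05, SE 0.08, adjusted p = 0.586).

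Sema4g had 84.2, 20.9 and 42.1 CPM in NE and 1.16, 1.47 and 0.743 CPM in Non-NE libraries, 44.8-fold lower in Non-NE (log2 change -5.48, SE 0.64, adjusted p = 0.000818) and 28.4-fold lower without NE replicate 1. Its day values were 20.2 and 20.9 CPM at day 0, 11.6 and 13.9 at day 3, 10.9 and 11.4 at day 7, and 19.9 and 22.0 at day 21. It fell by day 3 (1.63-fold, adjusted p = 9.08e-05), rose after day 7 (1.89-fold, adjusted p = 5e-06) and overlapped day 0 at day 21.

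Sema4b had 34.1, 35.8 and 59.9 CPM in NE and 28.1, 24.3 and 39.1 CPM in Non-NE libraries, overlapping groups that did not differ in the test (log2 change -0.54, SE 0.32, adjusted p = 0.209). At the 4 days it had 36.0 and 41.6 CPM at day 0, 38.0 and 31.6 at day 3, 34.4 and 32.8 at day 7, and 37.3 and 46.2 at day 21, and only the step from day 7 to day 21 passed (1.25-fold higher, adjusted p = 0.0235), a call lost without day 7 replicate 1 (adjusted p = 0.0702), day 7 replicate 2 (0.147) or day 21 replicate 2 (0.329). Sema4c, a ligand of plexin-B2, had 47.3, 30.3 and 39.0 CPM in NE and 14.2, 32.2 and 26.3 CPM in Non-NE libraries, overlapping groups (log2 change -0.72, SE 0.35, adjusted p = 0.144). It fell 1.61-fold by day 21 (adjusted p = 8.92e-05), with 29.2 and 27.8 CPM at day 0, 20.3 and 17.1 at day 3, 16.1 and 13.3 at day 7, and 14.7 and 20.2 at day 21. Sema4f had 11.9, 9.73 and 22.9 CPM in NE and 0.496, 93.3 and 22.0 CPM in Non-NE libraries, of which Non-NE replicate 1 was the lowest and replicate 2 the highest library of the series. This difference did not pass (log2 change 1.34, SE 1.27, adjusted p = 0.428). Through the days Sema4f had 9.75 and 7.497 CPM at day 0, 11.9 and 7.63 at day 3, 15.6 and 15.3 at day 7, and 15.5 and 22.5 at day 21 and was 2.23-fold higher at day 21 (adjusted p = 7e-06). Sema4a, at most 4.41 CPM in a library, was 8.29-fold higher at day 7 than at day 0 (adjusted p = 6.65e-07) and fell 3.65-fold by day 21 (adjusted p = 0.000131).

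Of the remaining semaphorins, Sema5a, which carries thrombospondin repeats, had 0.772, 0.109 and 0.745 CPM in NE and 16.7, 22.5 and 50.1 CPM in Non-NE libraries. It was 51.8-fold higher in Non-NE (log2 change 5.70, SE 0.77, adjusted p = 0.00145), 34.1-fold without Non-NE replicate 3, and did not pass the filter in the days, where it had 0.187 and 0.0926 CPM at day 0, 0.389 and 0.0919 at day 3, 0.407 and 0.305 at day 7, and 0.762 and 0.581 at day 21. Its relative Sema5b was 26.0-fold lower in Non-NE (0.248 ± 0.429 against 7.33 ± 6.45 CPM, SD with n = 3, adjusted p = 0.0234) and fell 10.4-fold by day 21 (adjusted p = 8.45e-08). The lower call in Non-NE was lost without NE replicate 1 (adjusted p = 0.0754) and without Non-NE replicates 1 (0.0595) or 2 (0.0598). Non-NE replicate 3 held all the Non-NE counts of Sema5b, so without it no fold is given (adjusted p = 0.0174). Sema5a and Sema5b each made up nearly all of their class in 1 state, 98.7% ± 2.17 in Non-NE and 96.7% ± 2.96 in NE.

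Sema7a, the semaphorin anchored to the membrane by a lipid, had 1.26, 1.97 and 2.02 CPM in NE and 0.992, 42.9 and 7.54 CPM in Non-NE libraries. Non-NE replicate 1 lay below all NE libraries and replicate 2 far above, and the test was not passed (log2 change 3.24, SE 1.20, adjusted p = 0.0675). In YAP5SA cells, with 2.34 and 1.76 CPM at day 0, 15.4 and 18.6 at day 3, 116 and 105 at day 7, and 83.4 and 89.4 at day 21, it rose 54.0-fold by day 7 (log2 change 5.76, SE 0.15, adjusted p = 4.54e-21) and fell 1.27-fold after (adjusted p = 0.00217), a fall lost without day 7 replicate 1 (adjusted p = 0.0674). Class 6, the ligands of A-type plexins, had no call between NE and Non-NE among its 2 tested genes. Sema6d rose 1.68-fold by day 7 and fell 1.83-fold after (adjusted p = 0.00189 and 0.0011), Sema6b was 4.90-fold lower at day 7 (adjusted p = 0.00317, 0.0944 without day 0 replicate 2), Sema6c had no call, and Sema6a was not tested.

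A-type plexins, the signalling partners of neuropilins, differed in composition between the states more than in their sum. They summed to 37.8 ± 10.2 CPM per kb in NE and 35.5 ± 4.84 in Non-NE. Plxna1 made up 28.0% ± 6.62 of this sum in NE and 74.9% ± 7.88 in Non-NE, and 33.9% ± 1.02 at day 0 and 65.4% ± 1.28 at day 21. Plxna1 was higher and Plxna2, Plxna3 and Plxna4 lower in Non-NE.

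Plxna1 had 106, 82.1 and 88.4 CPM in NE and 186, 297 and 244 CPM in Non-NE libraries, 2.55-fold higher in Non-NE with no overlap (log2 change 1.35, SE 0.23, adjusted p = 0.00353). With YAP5SA it had 81.6 and 88.9 CPM at day 0, 163 and 171 at day 3, 479 and 454 at day 7, and 217 and 265 at day 21. It peaked at day 7, 5.52-fold above day 0 (adjusted p = 2.87e-18), and then fell 1.92-fold to levels within the Non-NE range (adjusted p = 8.13e-10). Of its exons, 10.7% of bases are shared with a gene on the opposite strand, and whether strand was used in counting is not given in the sources used here.

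Plxna2, a receptor of class 6 semaphorins, had 222, 132 and 278 CPM in NE and 75.0, 57.9 and 61.1 CPM in Non-NE libraries. It was 3.36-fold lower in Non-NE (log2 change -1.75, SE 0.29, adjusted p = 0.00348) and moved the other way with YAP5SA: 134 and 142 CPM at day 0, 207 and 199 at day 3, 253 and 265 at day 7, and 177 and 197 at day 21. The rise was 1.89-fold at day 7 and 1.37-fold at day 21 (adjusted p = 4.37e-11 and 7.25e-06). Plxna3 had 106, 70.6 and 153 CPM in NE and 39.5, 22.3 and 53.3 CPM in Non-NE libraries, 2.94-fold lower (log2 change -1.56, SE 0.41, adjusted p = 0.0205), a call lost without NE replicate 1 (adjusted p = 0.0537), NE replicate 3 (0.0632) or Non-NE replicate 1 (0.0556). In the days it had 72.1 and 70.2 CPM at day 0, 57.3 and 53.7 at day 3, 30.1 and 28.5 at day 7, and 21.7 and 26.0 at day 21 and fell 2.94-fold in all (adjusted p = 4.28e-13). Its last step, from day 7 to day 21, was called (adjusted p = 0.0331) but not without day 7 replicate 1 (0.182), day 7 replicate 2 (0.0658) or day 21 replicate 1 (0.25), under scaling by library totals or with DESeq2. Plxna4 had 20.1, 17.3 and 24.2 CPM in NE and 0.165, 2.08 and 0.318 CPM in Non-NE libraries, and no library of one state reached the other (23.9-fold lower, log2 change -4.58, SE 0.84, adjusted p = 0.00506; 78.3-fold without Non-NE replicate 2). Over the days Plxna4 had 16.8 and 19.99 CPM at day 0, 12.3 and 11.7 at day 3, 11.2 and 8.94 at day 7, and 2.00 and 2.23 at day 21, with most of its 8.53-fold fall (adjusted p = 7.23e-13) after day 7.

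Plxnb2, a receptor of class 4 semaphorins, was the most abundant plexin per kilobase in every group, at 44.2 ± 9.14 CPM per kb in NE and 104 ± 13.7 at day 21. It had 332, 416 and 275 CPM in NE and 707, 612 and 520.2 CPM in Non-NE libraries. The Non-NE libraries all lay above NE, 1.74-fold (log2 change 0.80, SE 0.22, adjusted p = 0.0263), but the call was lost under scaling by library totals and without NE replicate 1 (adjusted p = 0.0849), NE replicate 3 (0.0779), Non-NE replicate 1 (0.0579) or Non-NE replicate 2 (0.0639). Its rise over the days, with 416 and 431 CPM at day 0, 481 and 518 at day 3, 651 and 653 at day 7, and 727 and 876 at day 21, was 1.92-fold (adjusted p = 2.02e-10).

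Plxnb1, the receptor of Sema4d, had 114, 102 and 225 CPM in NE and 23.6, 73.4 and 21.9 CPM in Non-NE libraries, 3.82-fold lower in Non-NE (log2 change -1.93, SE 0.57, adjusted p = 0.0315). The call was lost with the replicate block and without NE replicate 1 (adjusted p = 0.0532), NE replicate 3 (0.0902), Non-NE replicate 1 (0.0834) or Non-NE replicate 3 (0.089), and the change was 6.61-fold without Non-NE replicate 2. Across the days Plxnb1 held 103 and 109.6 CPM at day 0, 112 and 111 at day 3, 111 and 107 at day 7, and 71.9 and 96.0 at day 21, and the 1.25-fold fall by day 21 (adjusted p = 0.00421) was lost without day 0 replicate 2 (adjusted p = 0.0528) or day 21 replicate 1 (0.159).

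Plxnd1, the receptor of Sema3e, had 74.0, 60.0 and 45.2 CPM in NE and 42.3, 116 and 40.7 CPM in Non-NE libraries, overlapping groups (log2 change 0.11, SE 0.45, adjusted p = 0.869). While its ligand rose, Plxnd1 fell in YAP5SA cells, with 58.3 and 53.9 CPM at day 0, 35.8 and 41.1 at day 3, 11.99 and 11.4 at day 7, and 17.1 and 19.4 at day 21. The fall was 4.75-fold by day 7 (log2 change -2.25, SE 0.12, adjusted p = 6.56e-15), followed by a 1.57-fold rise to day 21 (adjusted p = 0.00031). Plxnb3 and Plxnc1 did not pass the filter, at group means under 1 CPM.

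Neuropilins, co-receptors of class 3 semaphorins and of vascular endothelial growth factor, differed by member. Nrp2 (chr1:62703285-62818695, plus strand of mm10) had 0.483, 0.219 and 0.319 CPM in NE and 129, 239 and 348 CPM in Non-NE libraries. It was 649-fold higher in Non-NE (log2 change 9.34, SE 0.58, adjusted p = 6.35e-05), with every Non-NE library far above every NE library. Day by day it had 0.187 and 0 CPM at day 0, 1.36 and 0.735 at day 3, 5.90 and 5.29 at day 7, and 55.0 and 52.6 at day 21, with 2 and 0 counts at day 0 and 577 and 543 at day 21. The ratio of day 21 to day 0 was 578 (counting interval 159.5 to 4775, adjusted p = 3.95e-19), at least 194 without day 0 replicate 1 and a ratio of 287 without day 0 replicate 2. The step after day 7 alone was 9.66-fold.

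Nrp1 had 36.7, 45.1 and 85.8 CPM in NE and 68.8, 146 and 189 CPM in Non-NE libraries, overlapping groups whose difference did not pass (log2 change 1.23, SE 0.47, adjusted p = 0.0728). The YAP5SA libraries held 46.7 and 44.8 CPM at day 0, 41.6 and 45.1 at day 3, 83.1 and 84.2 at day 7, and 137 and 133 at day 21, no call at day 3 and a 2.995-fold rise by day 21 (adjusted p = 3.87e-15). Nrp2 made up 0.594% ± 0.420 of neuropilin CPM per kb in NE, 59.6% ± 1.80 in Non-NE and 24.8% ± 0.106 at day 21.

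**Figure D3:**
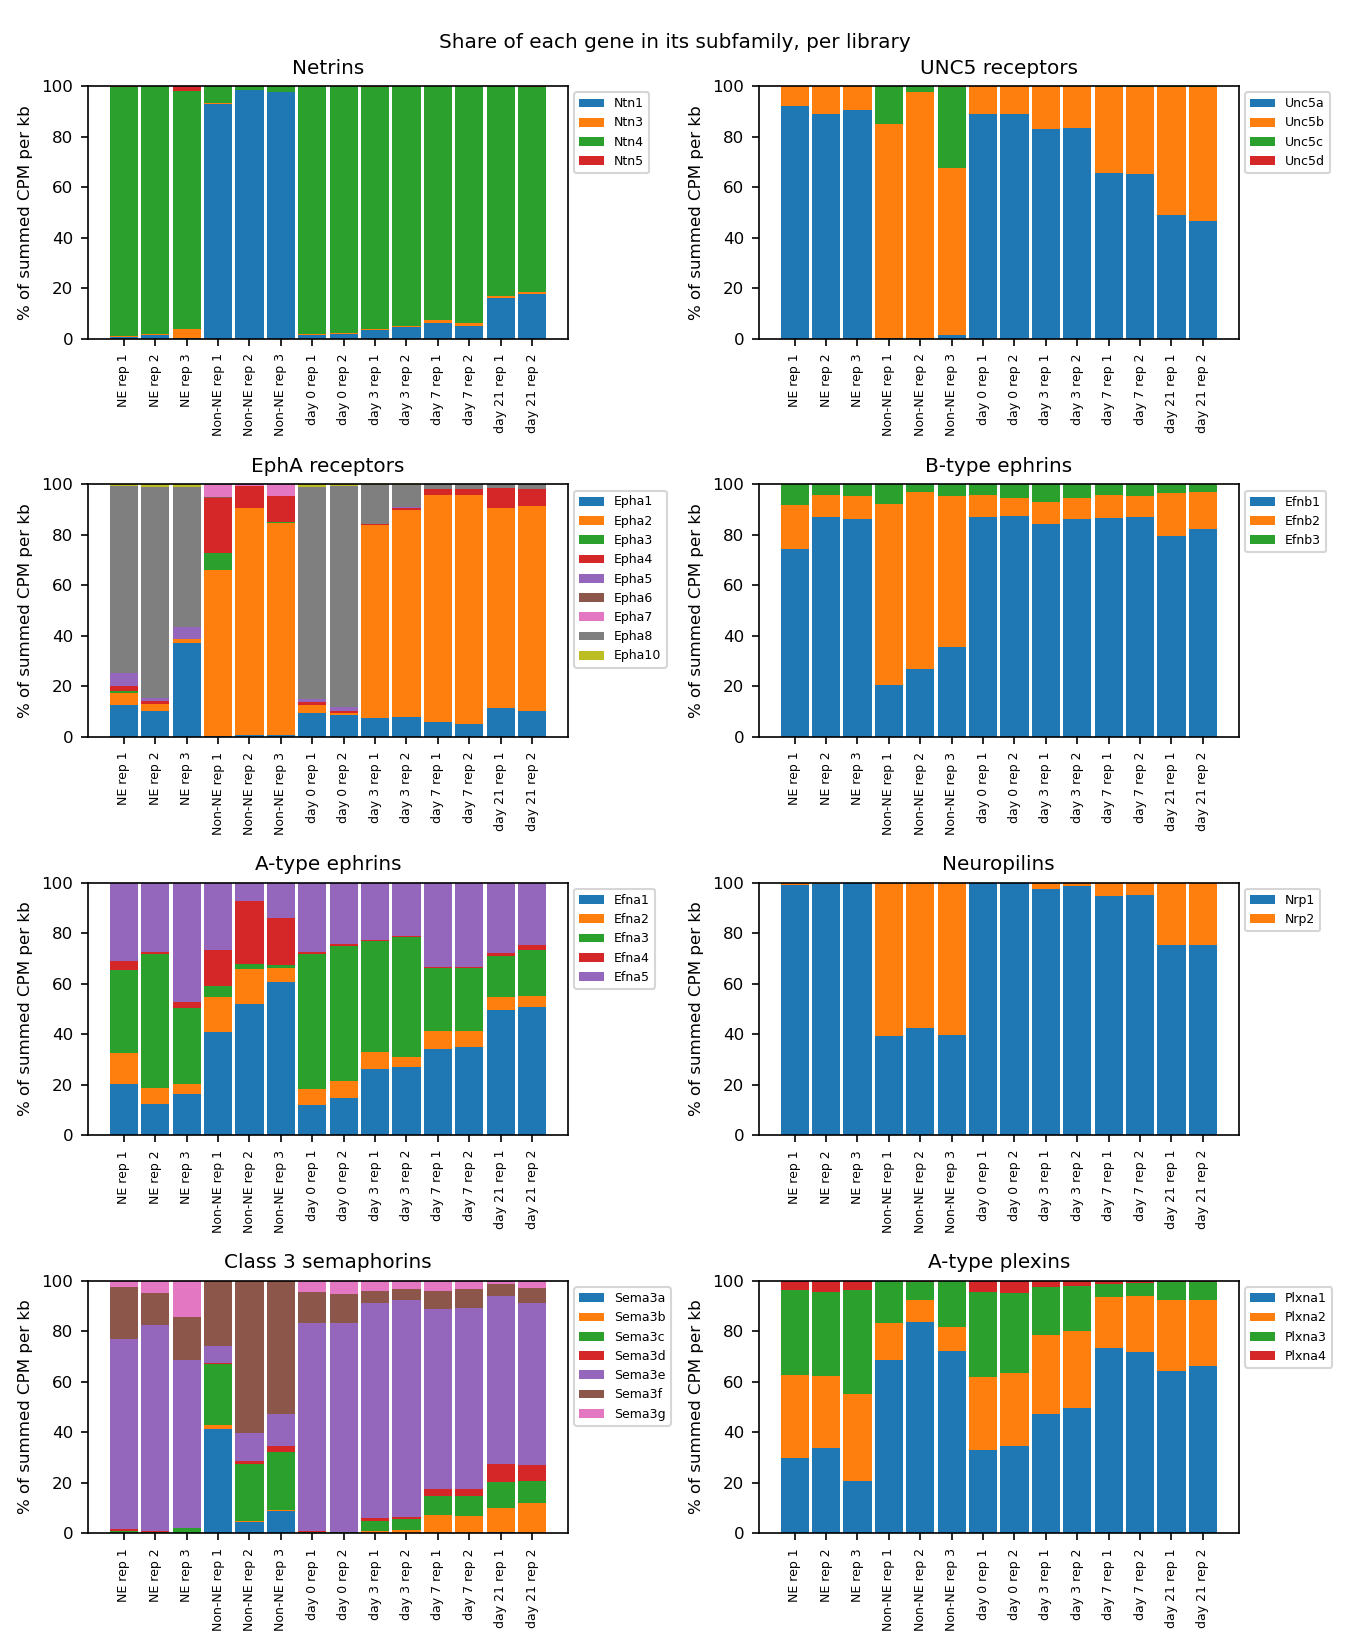
Share of each gene in the summed CPM per kb of exon of its subfamily (bars, %), for 8 subfamilies in each of the 14 libraries. By mean share a different gene leads in NE and in Non-NE in all 8 panels, which are among the 12 of 16 subfamilies where this holds. Plxna3 led A-type plexins and Efna3 A-type ephrins in only 2 of 3 NE libraries, and Sema3f led class 3 in 2 of 3 Non-NE libraries. At day 21 Epha2 held 80.1% of EphA receptors (80.0% in Non-NE) and Ntn4 82.2% of netrins (3.54% in Non-NE).

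EphA receptors, tyrosine kinases for A-type ephrins, stood far higher in sum in Non-NE than NE and at day 21 than day 0. They summed to 5.54 ± 0.205 CPM per kb in NE, 71.7 ± 37.6 in Non-NE, 5.43 ± 0.0466 at day 0 and 78.0 ± 2.65 at day 21. Epha8 led in NE (71.0% ± 14.2) and at day 0, and Epha2 led in Non-NE (80.0% ± 12.7) and at day 21 (80.1% ± 1.04).

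Epha2 (chr4:141301240-141329384, plus strand), a receptor of ephrin-A1 that is raised in many carcinomas, had 1.16, 0.766 and 0.426 CPM in NE and 107, 463 and 277 CPM in Non-NE libraries. Its 341-fold difference (log2 change 8.42, SE 0.75, adjusted p = 0.000284) far exceeded the spread among Non-NE libraries. With YAP5SA it had 0.750 and 0.185 CPM at day 0, 75.7 and 92.0 at day 3, 309 and 299 at day 7, and 282 and 302 at day 21. It rose 174-fold by day 3 and 642-fold by day 7 (adjusted p = 2.08e-19 and 2.06e-23), with 423- and 1553-fold without day 0 replicate 1 and 109- and 402-fold without day 0 replicate 2, and the step from day 7 to day 21 was not called (log2 change -0.05, SE 0.08, adjusted p = 0.659). Mean levels at day 21 and in Non-NE were 292 ± 13.7 (SD, n = 2) and 282 ± 178 CPM (SD, n = 3).

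Epha4, which binds ephrins of both types, had 0.965, 0.437 and 0.106 CPM in NE and 61.6, 76.8 and 59.9 CPM in Non-NE libraries, 122-fold higher in Non-NE (log2 change 6.93, SE 0.60, adjusted p = 0.00024; 227-fold without NE replicate 1). It came later than Epha2, with 0.562 and 0.370 CPM at day 0, 1.07 and 1.56 at day 3, 14.3 and 13.1 at day 7, and 47.5 and 44.4 at day 21. The rise was 97.7-fold by day 21 (adjusted p = 6.41e-19), and each day's libraries lay above those of the day before. Epha1 had 2.70, 2.19 and 8.41 CPM in NE and 0.661, 2.44 and 2.12 CPM in Non-NE libraries, overlapping groups (log2 change -1.36, SE 0.73, adjusted p = 0.172). In YAP5SA cells, by contrast, Epha1 rose at each step, with 2.06 and 1.85 CPM at day 0, 6.22 and 7.54 at day 3, 17.6 and 14.03 at day 7, and 34.0 and 32.5 at day 21, and ended 17.2-fold above day 0 (adjusted p = 3.15e-16).

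Epha8 had 18.7, 21.5 and 15.1 CPM in NE and 0.661, 0 and 0.318 CPM in Non-NE libraries, 59.3-fold lower in Non-NE (log2 change -5.89, SE 0.83, adjusted p = 0.00172), 104-fold without Non-NE replicate 1 and 39.0-fold without replicate 2. It fell 3.77-fold by day 21 (adjusted p = 9.95e-10), with 21.7 and 22.2 CPM at day 0, 15.3 and 10.1 at day 3, 6.51 and 5.79 at day 7, and 4.76 and 6.68 at day 21. Epha7 was at 0 in every NE library and at 16.4, 5.98 and 30.9 CPM in Non-NE, at least 179-fold higher (adjusted p = 0.00345; at least 100.1-fold without Non-NE replicate 3 and 115 to 122 without an NE library), and stayed at or near 0 in all YAP5SA libraries. Epha5, not tested between NE and Non-NE, had 4.73, 0.984 and 4.37 CPM in NE and 0, 0 and 0 CPM in Non-NE libraries. Epha3 reached 19.8 CPM in Non-NE replicate 1 and under 1 CPM in every other library, and Epha6 and Epha10 stayed under 1 CPM throughout.

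EphB receptors summed to 26.0 ± 8.81 CPM per kb in NE and 65.2 ± 22.0 in Non-NE, with no such step under YAP5SA (30.7 ± 0.252 at day 0 and 30.9 ± 3.17 at day 21). Ephb4, the receptor of ephrin-B2, had 0.290, 0.437 and 0.213 CPM in NE and 73.2, 165 and 112 CPM in Non-NE libraries. It was 349-fold higher in Non-NE (log2 change 8.45, SE 0.50, adjusted p = 5.39e-05), and all NE libraries were under 1 CPM. The days had 0.375 and 0.555 CPM at day 0, 0.291 and 0.276 at day 3, 0.305 and 0.305 at day 7, and 3.14 and 3.49 at day 21, so a 7.07-fold rise by day 21 (adjusted p = 7.07e-07) left the level far below Non-NE.

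Ephb2 had 105, 119 and 78.8 CPM in NE and 127, 86.7 and 60.1 CPM in Non-NE libraries, overlapping groups (log2 change -0.19, SE 0.30, adjusted p = 0.635). Under YAP5SA it fell, with 116 and 121 CPM at day 0, 68.8 and 59.5 at day 3, 31.2 and 24.4 at day 7, and 35.7 and 37.3 at day 21. The fall was 4.22-fold by day 7 (adjusted p = 2.41e-15), followed by a 1.32-fold rise (adjusted p = 0.00509; 0.184 without day 7 replicate 2). Ephb3 had 94.5, 98.3 and 54.5 CPM in NE and 67.4, 111 and 196 CPM in Non-NE libraries, again overlapping (log2 change 0.56, SE 0.43, adjusted p = 0.329). It moved opposite to Ephb2, with 98.0 and 94.1 CPM at day 0, 119.7 and 110.5 at day 3, 206 and 199 at day 7, and 143 and 168 at day 21, 2.13-fold up by day 7 and 1.30-fold down after it (adjusted p = 6.67e-12 and 0.000317). Ephb6, which lacks kinase activity, had 31.8, 25.7 and 4.90 CPM in NE and 31.4, 15.0 and 112 CPM in Non-NE libraries, with Non-NE replicate 3 apart from the rest and no call (log2 change 1.31, SE 0.90, adjusted p = 0.278). It fell 1.74-fold by day 21 (adjusted p = 5.37e-06), with 26.1 and 25.1 CPM at day 0, 28.1 and 23.8 at day 3, 19.9 and 17.9 at day 7, and 13.2 and 15.7 at day 21. Ephb1 had counts in 1 library alone.

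Ephrins, the surface ligands of these receptors, included partners of the receptors that changed. Efna1, the ligand of Epha2, had 12.5, 12.5 and 7.03 CPM in NE and 31.6, 30.3 and 43.4 CPM in Non-NE libraries, 3.20-fold higher in Non-NE with no overlap (log2 change 1.68, SE 0.33, adjusted p = 0.00642). It rose 4.65-fold by day 21 (log2 change 2.22, SE 0.12, adjusted p = 1.03e-14), with 11.9 and 15.2 CPM at day 0, 33.9 and 40.2 at day 3, 35.4 and 36.8 at day 7, and 59.9 and 64.2 at day 21. Receptor and ligand were both higher in Non-NE and at day 21.

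Efna3 had 26.9, 71.0 and 17.5 CPM in NE and 4.13, 1.59 and 1.27 CPM in Non-NE libraries, 17.4-fold lower in Non-NE (log2 change -4.12, SE 0.73, adjusted p = 0.00446), 9.68-fold without NE replicate 2 and 27.2-fold without Non-NE replicate 1. In the days it had 70.5 and 73.0 CPM at day 0, 76.1 and 93.5 at day 3, 34.2 and 35.0 at day 7, and 26.1 and 31.0 at day 21, a 2.48-fold fall by day 21 (adjusted p = 4.27e-11). A small rise at day 3 (adjusted p = 0.0474) was lost in 9 of the 15 alternative settings, among them leaving out day 3 replicate 2 (adjusted p = 0.618), day 0 replicates 1 and 2 in turn (0.215 and 0.118) and day 7 replicates 1 and 2 in turn (0.0671 and 0.0657). Efna5 had 42.0, 61.1 and 45.6 CPM in NE and 45.8, 9.40 and 22.0 CPM in Non-NE libraries, overlapping groups (log2 change -1.002, SE 0.53, adjusted p = 0.171). It was 1.27-fold higher at day 21 (adjusted p = 0.000953), with 60.1 and 55.2 CPM at day 0, 64.6 and 69.6 at day 3, 76.2 and 77.4 at day 7, and 74.6 and 69.4 at day 21. Efna4 was 10.1-fold higher in Non-NE (11.4 ± 1.64 against 1.08 ± 0.673 CPM, SD with n = 3, adjusted p = 0.00337; 15.6-fold without NE replicate 1), and Efna2 had no call in any comparison. The exons of Efna3 and Efna4 share 14.1% and 10.5% of their bases with genes on the opposite strand.

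Efnb2, the ligand of Ephb4, had 21.9, 13.6 and 13.3 CPM in NE and 156, 361 and 196 CPM in Non-NE libraries. It was 14.2-fold higher in Non-NE (log2 change 3.83, SE 0.41, adjusted p = 0.000566). The YAP5SA libraries gave 13.3 and 12.4 CPM at day 0, 16.6 and 17.2 at day 3, 27.7 and 22.8 at day 7, and 30.6 and 30.3 at day 21, a 2.404-fold rise (adjusted p = 1.87e-09) that left all of them below every Non-NE library. Efnb1 had 47.1, 66.6 and 63.0 CPM in NE and 22.5, 69.5 and 59.1 CPM in Non-NE libraries, overlapping groups (log2 change -0.26, SE 0.42, adjusted p = 0.639). It was 1.74-fold higher at day 7 (adjusted p = 2.03e-08) and back near day 0 at day 21 (log2 change 0.15, SE 0.09, adjusted p = 0.153), with 67.0 and 76.3 CPM at day 0, 78.8 and 87.5 at day 3, 129.9 and 118 at day 7, and 71.5 and 85.1 at day 21. Efnb3, at most 8.10 CPM in a library, was 1.53-fold higher at day 7 (adjusted p = 0.0184; 0.227 without day 0 replicate 1, 0.064 and 0.0726 without day 7 replicates 1 and 2 in turn) and 1.94-fold lower after it (adjusted p = 0.00188).

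Of slits and roundabouts, Slit1 and Robo1 were lower in Non-NE and Slit2 higher. Robo1 (chr16:72308306-73046095, plus strand), the main slit receptor of these cells, had 394, 364 and 373 CPM in NE and 32.4, 17.6 and 31.6 CPM in Non-NE libraries. The NE values lay close together and far above every Non-NE library, 14.3-fold in the fit (log2 change -3.84, SE 0.28, adjusted p = 0.00012). With YAP5SA it had 363 and 371 CPM at day 0, 194 and 159 at day 3, 67.0 and 67.0 at day 7, and 74.3 and 82.0 at day 21. The fall was 5.44-fold by day 7 (log2 change -2.44, SE 0.09, adjusted p = 3.28e-18), and a 1.17-fold rise after it (adjusted p = 0.0413) was lost in 7 of 15 alternative settings, among them leaving out day 21 replicate 2 (adjusted p = 0.246), day 7 replicates 1 and 2 in turn (0.146 and 0.159) and day 0 replicates 1 and 2 in turn (0.0613 and 0.0609).

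Slit2 had 0.0965, 0.109 and 0 CPM in NE and 303, 22.3 and 115 CPM in Non-NE libraries, 2 counts in all of NE. The ratio was 1895 (counting interval 524 to 15655, adjusted p = 0.00135), or 1042 without Non-NE replicate 1. Slit2 did not pass the filter in the days, at 0.0937 and 0 CPM at day 0, 0.0972 and 0 at day 3, 0 and 0.203 at day 7, and 0.762 and 0.969 at day 21. Slit1 was 46.7-fold lower in Non-NE (0.273 ± 0.224 against 13.6 ± 8.57 CPM, SD with n = 3, adjusted p = 0.00211), 31.1-fold without NE replicate 3 and 90.1-fold without Non-NE replicate 3. It fell 5.48-fold by day 21 (adjusted p = 2.32e-10). Slit3 reached 34.2 CPM in Non-NE replicate 1 and at most 3.19 CPM elsewhere.

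Robo3, known from axons that cross the midline, had 2.61, 12.6 and 0.106 CPM in NE and 0, 0 and 0 CPM in Non-NE libraries. It did not pass the filter there, and the highest NE value was that of replicate 2, the library taken to share reads with day 0. The days had 13.6 and 14.3 CPM at day 0, 18.9 and 21.7 at day 3, 11.49 and 9.66 at day 7, and 15.8 and 16.2 at day 21, 1.45-fold higher at day 3 (adjusted p = 0.0017), 1.89-fold lower from day 3 to day 7 (adjusted p = 5.32e-06), and at day 21 not different from day 0 in the test (log2 change 0.22, SE 0.14, adjusted p = 0.153). Its lower call at day 7 against day 0 (adjusted p = 0.0246) was lost without day 0 replicate 1 (0.0548), day 0 replicate 2 (0.111) or day 7 replicate 2 (0.23) and with DESeq2. Robo2 fell 13.04-fold by day 21 (adjusted p = 1.27e-09; 0.433 ± 0.209 against 5.87 ± 0.185 CPM, SD with n = 2). Robo4, an endothelial roundabout, was at or under 1 count in every library.

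A different netrin led in each state. Ntn4, a laminin-related netrin of basement membranes, made up 97.0% ± 2.33 of netrin CPM per kb in NE, and Ntn1, the classical axon attractant, 96.3% ± 2.90 in Non-NE. Ntn1 (chr11:68209364-68400823, minus strand) had the highest mean of all 70 genes per kilobase in Non-NE, 79.9 ± 16.5 CPM per kb, within the spread of Plxnb2 (79.4 ± 12.1).

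Ntn1 had 1.83, 5.36 and 0.639 CPM in NE and 384, 579 and 542 CPM in Non-NE libraries, 186-fold higher in Non-NE (log2 change 7.54, SE 0.76, adjusted p = 0.000481; 391.8-fold without NE replicate 2). The YAP5SA libraries had 5.06 and 7.13 CPM at day 0, 9.04 and 10.1 at day 3, 10.2 and 8.54 at day 7, and 24.4 and 26.1 at day 21. A 4.19-fold rise by day 21 (adjusted p = 1.54e-11) left all YAP5SA libraries far below every Non-NE library. Ntn4 had 168, 224 and 81.0 CPM in NE and 16.5, 5.74 and 7.54 CPM in Non-NE libraries, 16.6-fold lower (log2 change -4.05, SE 0.56, adjusted p = 0.00164). It fell at each step, with 225 and 224 CPM at day 0, 149 and 128 at day 3, 89.7 and 93.2 at day 7, and 75.3 and 71.8 at day 21, 3.01-fold in all (adjusted p = 3.4e-15). Ntn3, tested in the days, had no call, and Ntn5 stayed under 1 CPM in every library.

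Unc5a (chr13:54949411-55006018, plus strand), a repulsive netrin receptor, was the most abundant guidance gene per kilobase in NE (76.0 ± 15.9 CPM per kb) and at day 0 (88.9 ± 2.93). It had 241, 362 and 347 CPM in NE and 0.165, 0.488 and 1.17 CPM in Non-NE libraries. The groups were far apart, a 486-fold difference (log2 change -8.93, SE 0.54, adjusted p = 5.88e-05; 901-fold without Non-NE replicate 3). In YAP5SA cells it had 362 and 379 CPM at day 0, 283 and 259.7 at day 3, 90.7 and 88.3 at day 7, and 37.5 and 44.0 at day 21. It fell at each step and 8.96-fold by day 21 (log2 change -3.16, SE 0.09, adjusted p = 9.81e-21), still far above Non-NE.

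Unc5b had 31.2, 66.5 and 53.8 CPM in NE and 51.7, 202 and 77.8 CPM in Non-NE libraries, overlapping groups (log2 change 1.09, SE 0.55, adjusted p = 0.15). Through the days it had 66.6 and 69.7 CPM at day 0, 86.6 and 78.3 at day 3, 70.4 and 69.6 at day 7, and 58.4 and 75.5 at day 21, with a call at day 3 alone (1.20-fold higher, adjusted p = 0.0245) that was lost without day 0 replicate 1 (adjusted p = 0.156), day 0 replicate 2 (0.066) or day 3 replicate 1 (0.186). Unc5b made up 82.6% ± 15.7 of UNC5 CPM per kb in Non-NE and 51.8% ± 1.68 at day 21, against 9.40% ± 1.47 in NE. Unc5c had 0.579, 0.109 and 0 CPM in NE and 28.1, 14.2 and 116 CPM in Non-NE libraries, 204-fold higher in Non-NE (log2 change 7.67, SE 1.27, adjusted p = 0.00341), 752-fold without NE replicate 1 and 81.7-fold without Non-NE replicate 3. It rose from 1 count at day 0, with 0.0937 and 0 CPM at day 0, 0.291 and 0.184 at day 3, 2.85 and 2.74 at day 7, and 1.71 and 2.52 at day 21 (ratio 45.4 at day 21, counting interval 7.73 to 1833, adjusted p = 6.58e-07; at least 7.61 without day 0 replicate 1 and a ratio of 22.5 without day 0 replicate 2).

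Neo1, the receptor that netrins share with repulsive guidance molecules, had 62.6, 119.5 and 135 CPM in NE and 106, 328 and 189 CPM in Non-NE libraries, overlapping groups (log2 change 0.93, SE 0.47, adjusted p = 0.149). It rose 1.79-fold by day 21 (adjusted p = 1.17e-10), with 118 and 125 CPM at day 0, 185 and 188 at day 3, 215 and 222 at day 7, and 214 and 214 at day 21. Its relative Dcc was at 0 in Non-NE and at 0.772, 1.42 and 1.28 CPM in NE, and in the days it fell 4.26-fold by day 7 and rose 5.99-fold after (adjusted p = 0.00203 and 0.000253). Unc5d was under 1 CPM in every library.

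**Figure D4:**
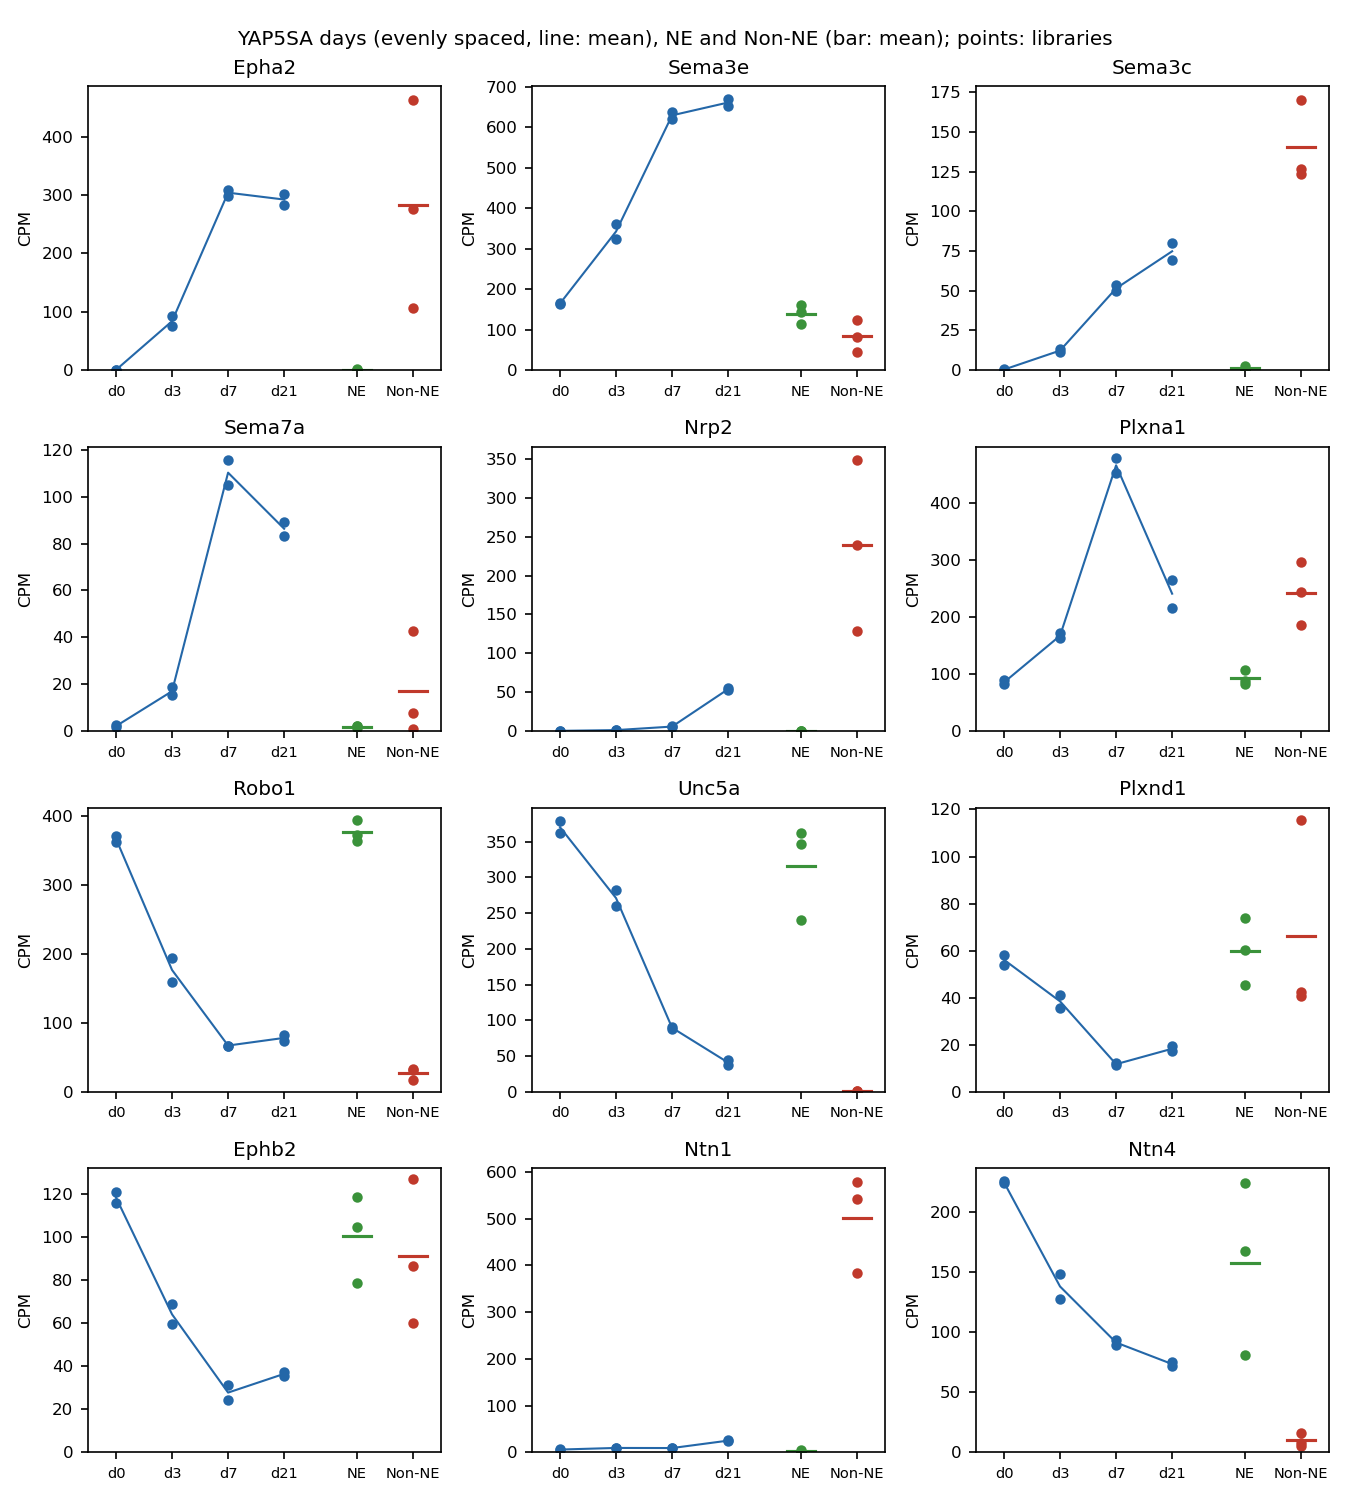
CPM of 12 guidance genes in the YAP5SA libraries at days 0, 3, 7 and 21 (blue points, line through the means, days evenly spaced) and in NE (green) and Non-NE (red) libraries (bar: mean). Epha2 reached 309 and 299 CPM at day 7, within the Non-NE range, while Ntn1 reached 24.4 and 26.1 CPM at day 21 against 384 to 579 CPM in Non-NE.

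Over the 3 steps of the YAP5SA series, from day 0 to 3, 3 to 7 and 7 to 21, 31 of the 55 tested genes had none of 4 simple courses (56.4%, against 75.3% of all genes). Calls were higher in every step for 8 genes (14.5%, against 3.34% of all genes). Of these Epha1, Nrp2, Sema3b, Sema3c and Sema3d kept all 3 calls with each YAP5SA library left out in turn. Efnb2 lost its step to day 3 in 3 of these fits (adjusted p from 0.0528 to 0.137) and its last step in 5 (up to 0.472). Epha4 lost the step to day 3 in 2 (0.0997 and 0.13). Plxnb2 lost it in 3 (from 0.0875 to 0.173) and its last step without day 21 replicate 2 (0.0942).

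Another 8 genes were higher at day 7 than day 3 and lower at day 21 than day 7 (14.5%, against 11.1% of all genes). Efnb1, Ephb3, Plxna1 and Plxna2 kept both calls with each library left out. Sema3f, Sema3g and Sema7a lost the later one. Sema6d lost the earlier one without day 3 replicate 1 (adjusted p = 0.0756) or day 7 replicate 1 (0.113). Lower calls in every step were made for 3 genes (5.45%, against 1.54%). Ntn4 and Unc5a kept them and Plxna3 did not. The 5 genes lower at day 7 than day 3 and higher after it were a share near that of all genes (9.09%, against 8.69%). Of these Plxnd1 and Robo3 kept both calls. Dcc lost the first in 7 of 8 fits (adjusted p up to 0.304). Ephb2 and Robo1 lost the second in 1 (adjusted p = 0.184) and 5 (up to 0.246). Yap1 counts themselves were highest at day 3. Step calls held less well than the others: under every alternative setting 11 of 38 were kept from day 3 to day 7 and 4 of 37 from day 7 to day 21, against 28 of 40 at day 21 over day 0.

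The leading gene of a subfamily, by mean share of CPM per kb, differed between NE and Non-NE in 12 of the 16 subfamilies with at least 2 genes. It differed between day 0 and day 21 in 3 (EphA receptors, A-type ephrins and UNC5 receptors). In NE the lead was narrow for Plxna3 (36.1% ± 4.46), which led A-type plexins in 2 of 3 libraries, and for Sema4d (30.6% ± 6.54), which led class 4 in 1 of 3. Efna3 in NE and Ephb4, Sema3f and Sema4b in Non-NE each led in 2 of 3 libraries, and Plxna1 at day 0 in 1 of 2. Non-NE and day 21 had the same leading gene in 8 of the 16 subfamilies.

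NE and day 0, the controls, share reads, so values of both comparisons are set side by side only. Plxna2 and Sema3g were lower in Non-NE and higher at day 21. Sema4d and Sema4g were lower in Non-NE with no call at day 21. Mean levels at day 21 and in Non-NE lay within the spread between libraries for Epha2, Nrp1 (135 ± 3.43 and 135 ± 61.0 CPM), Neo1 (214 ± 0.0448 and 208 ± 112 CPM) and Plxna1 (241 ± 34.5 and 242 ± 55.2 CPM). They were far apart for Ntn1, Slit2 (0.865 ± 0.146 and 147 ± 143 CPM), Ephb4 (3.32 ± 0.243 and 117 ± 46.2 CPM) and Sema3a (5.56 ± 1.56 and 198 ± 189 CPM). Slit2 and Sema3a varied widely among Non-NE libraries, whose lowest values (22.3 and 50.9 CPM) still exceeded both day 21 libraries. The difference between the changes was tested in a fit without NE replicate 2 and passed for 22 of 62 tested genes. That share, 35.5%, was near the 32.8% of all 14820 genes (21.2% with the day change above and 11.6% below). The day change was above the Non-NE change in 16 of the 22 genes and below it in 6. Some genes at or near 0 in NE and day 0 had an SE too large for a call. The SE was 28072.5 for Sema3a, 12335 for Epha7, 7.94 for Nrp2 and 6.54 for Slit2. Their lack of a call is no sign of like changes. This fit shared its spread over both sets of libraries, though NE and Non-NE varied more than the days. Its SE and p-values can therefore be too small for the NE and Non-NE part.

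Of 70 other genes of guidance signalling, chosen from textbook pathways, 69 were in the table. Between NE and Non-NE 63 were tested, of which 19 were higher and 16 lower in Non-NE (55.6%, against 42.8% of all genes tested). The largest rises with at least 10 CPM were Dock1, a Rac activator downstream of Dcc (64.1 ± 8.19 against 0.0355 ± 0.0615 CPM, adjusted p = 5.14e-05), Rgma, a ligand of neogenin (39.7 ± 16.0 against 0.104 ± 0.00673 CPM, adjusted p = 5.88e-05), and Flrt2, a ligand of Unc5 receptors (179.9 ± 182 against 0.558 ± 0.689 CPM, adjusted p = 0.00186). The largest falls were in Dpysl5 and Crmp1, collapsin response mediators of semaphorin signalling (0.151 ± 0.167 against 201 ± 48.6 CPM and 0.259 ± 0.316 against 221 ± 73.3 CPM, adjusted p = 4.63e-05 and 0.000123), and in the cadherin Celsr3 (0.202 ± 0.103 against 127 ± 39.7 CPM, adjusted p = 3.5e-05).

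In the days 57 of these genes were tested. At day 3, 28 were higher and 17 lower than at day 0 (78.9%, against 48.6% of all genes). The counts were 31 and 18 at day 7 (86%, against 71%) and 30 and 17 at day 21 (82.5%, against 71.7%). Flrt2 rose from 1 count at day 0 to 117 ± 1.47 CPM at day 21 (adjusted p = 3.26e-21). Ablim3, an actin-binding protein, and Pak3, a kinase downstream of Rac, followed (60.3 ± 9.68 against 1.35 ± 0.342 CPM and 58.3 ± 0.962 against 1.68 ± 0.279 CPM, adjusted p = 1e-18 and 7.81e-20). The largest falls were in Cdk5r1, the activator of Cdk5 (3.41 ± 0.163 against 49.4 ± 2.39 CPM, adjusted p = 2.3e-17), the membrane protein Islr2 (1.59 ± 0.0867 against 16.7 ± 0.508 CPM, adjusted p = 7.02e-13) and the neuronal tubulin Tubb3 (10.8 ± 0.535 against 57.3 ± 1.59 CPM, adjusted p = 5.95e-16).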

How the data were processed

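RNA-seq of poly(A) RNA was measured in 14 libraries of 6 groups. The deposited table holds raw counts per gene symbol, which the authors made by aligning reads with STAR 2.4.2 to mm10 and counting with featureCounts, per the submitters' processing notes; annotation and strand setting are not given in the sources used here. Each column was tied to 1 sample by name, and 0 columns of samples were left unused. Totals of 6730816 to 10659524 counts set the precision.

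The counts were tested in R 4.3.3 with edgeR 4.0.16 (TMM scaling, filterByExpr, robust quasi-likelihood F test, two-sided) over all genes that passed the filter, with Benjamini-Hochberg adjustment and calls at 0.05. NE and Non-NE were fitted together (6 libraries) and the YAP5SA days together (8 libraries). The difference of changes was fitted over 13 libraries, without NE replicate 2, with a spread shared by both sets. The script was tested on simulated counts. SE is the size of the log2 change over the square root of F. CPM per kb uses merged exon lengths of GENCODE M21, and gene positions are on mm10 (GRCm38). DESeq2 1.42.0, limma 3.58.1 (voom, difference of changes only), other scalings and filters, the replicate block, all 14 libraries in one fit, and leaving out each library were alternatives.

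Genes were chosen by symbol, and members, lists and tests were chosen with earlier results of these data known. Values in every library are given for genes called in at least 1 comparison with a group mean of at least 20 CPM; from the pathway list, the 3 largest rises and 3 largest falls with at least 10 CPM are named. Several named genes outside this rule were added after their values were seen.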

Additional observations from a re-analysis of the deposited data

Results flagged for a closer look

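For 22 genes the change from day 0 to day 21 differed from the change from NE to Non-NE in edgeR's quasi-likelihood test of the difference itself, at an adjusted p of 0.05. They were 35.5% of the 62 guidance genes tested, a share near that of all 14820 genes (32.8%). Values are log2 differences, day change less Non-NE change, and are positive where the day change was the higher one. This fit had a common biological coefficient of variation of 0.266 for both sets of libraries. Fitted apart, NE and Non-NE had 0.399 and the days 0.0548. The SE and p-values below can therefore be too small for the NE and Non-NE part.

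Among semaphorins the difference was 2.63 (SE 0.47, adjusted p = 0.00216) for Sema3e, -2.32 (SE 0.57, adjusted p = 0.0119) for Sema3f and 4.39 (SE 0.92, adjusted p = 0.00515) for Sema3g. It was 4.24 (SE 0.50, adjusted p = 0.000159) for Sema4d, 5.84 (SE 0.48, adjusted p = 1.16e-05) for Sema4g and 1.75 (SE 0.45, adjusted p = 0.0142) for Sema6c. Of the plexins Plxna2 had 2.39 (SE 0.21, adjusted p = 2.28e-05).

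Ephrins gave 1.99 (SE 0.52, adjusted p = 0.0161) for Efna3, -2.51 (SE 0.50, adjusted p = 0.00404) for Efnb2 and -1.26 (SE 0.44, adjusted p = 0.0496) for Efnb3. Eph receptors gave 5.70 (SE 0.77, adjusted p = 0.000366) for Epha1, 8.33 (SE 0.95, adjusted p = 0.000392) for Epha5 and 3.82 (SE 0.77, adjusted p = 0.00423) for Epha8, and -1.69 (SE 0.40, adjusted p = 0.0104) for Ephb2 and -5.98 (SE 0.77, adjusted p = 0.00028) for Ephb4. Slit1 had 3.09 (SE 0.91, adjusted p = 0.0268), Robo1 1.59 (SE 0.33, adjusted p = 0.00466) and Robo3 6.96 (SE 1.93, adjusted p = 0.0265). Netrins and their receptors gave -6.58 (SE 0.48, adjusted p = 5.27e-06) for Ntn1, 2.06 (SE 0.57, adjusted p = 0.0206) for Ntn4, 5.58 (SE 0.47, adjusted p = 1.42e-05) for Unc5a and 6.80 (SE 1.10, adjusted p = 0.00243) for Dcc.

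Dcc, Epha5 and Robo3 had 0 counts in all Non-NE libraries, so the size of their fitted difference depends on the prior count and is no bound.

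Calls for 7 of these genes ended when 1 library was left out. Efnb3 was no longer called in 11 of these fits (adjusted p from 0.0506 to 0.208), and Slit1 not without NE replicate 3 (log2 1.79, adjusted p = 0.0736), Non-NE replicate 2 or any day 0 or day 21 library (adjusted p from 0.0606 to 0.0857). Robo3 was lost without NE replicate 1 (log2 3.40, adjusted p = 0.193) or any day 0 or day 21 library (adjusted p from 0.0614 to 0.0708), and Ntn4 without NE replicate 1 (log2 1.44, adjusted p = 0.0677) or any of those (adjusted p from 0.0576 to 0.0749). Efna3 was lost without either day 0 library or day 21 replicate 2 (adjusted p from 0.0608 to 0.0653), Sema6c without day 0 replicate 1 (0.074) or day 21 replicate 2 (0.0516), and Sema3f without day 21 replicate 1 (0.0545). Sema3g was 2.78 without NE replicate 3 and 5.12 without NE replicate 1, and its call ended with limma-voom. Other values that moved by more than 1.5-fold were 4.67 and 6.29 for Epha1 without NE replicates 3 and 1, 4.59 and 3.21 for Epha8 without Non-NE replicates 1 and 2, -7.55 for Ntn1 and 5.25 for Sema4g without NE replicate 1, 6.47 for Unc5a without Non-NE replicate 3, 2.61 for Efna3 without Non-NE replicate 1, 7.87 for Robo3 without NE replicate 3, 3.75 for Slit1 without NE replicate 1, 2.70 without Non-NE replicate 2 and 4.05 without Non-NE replicate 3.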

How the results depend on the processing

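No call of a guidance gene reversed under any alternative. Calls kept under every alternative numbered 26 of 32 between NE and Non-NE, 6 of 37 at day 3, 25 of 48 at day 7, 28 of 40 at day 21, 11 of 38 from day 3 to day 7, 4 of 37 from day 7 to day 21 and 14 of 22 for the difference of changes. With all 14 libraries in one fit, calls over all genes numbered 8997 between NE and Non-NE, 1041 at day 3, 4589 at day 7, 4586 at day 21, 1281 from day 3 to day 7 and 515 from day 7 to day 21. The guidance genes then called higher and lower were 5 and 1 at day 3, 16 and 9 at day 7, 6 and 5 from day 3 to day 7, and 3 and 1 from day 7 to day 21. No share of tested genes is given for that fit, so guidance genes cannot be set against all genes there. The common biological coefficient of variation was 0.399 in the NE and Non-NE fit, 0.0548 in the fit of the days and 0.266 in that of the difference.

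Leaving out 1 library gave 16 to 19 higher and 12 to 16 lower between NE and Non-NE, 16 to 25 and 12 to 16 at day 3, 26 to 29 and 17 to 20 at day 7, 26 to 28 and 14 to 15 at day 21, 22 to 24 and 12 to 18 from day 3 to day 7, 17 to 24 and 11 to 18 from day 7 to day 21, and 16 to 28 for the difference of changes. Where it left a day with 1 library, that library was assumed to vary like the others.

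Replicate numbers did not pair the samples (correlations of deviations from -0.06 to 0.05). The fit with the replicate block called 19 higher and 13 lower between NE and Non-NE, 21 and 15 at day 3, 28 and 20 at day 7, 25 and 15 at day 21, 24 and 14 from day 3 to day 7, and 21 and 17 from day 7 to day 21. With 2 libraries a day and few counts, small differences of genes under 1 CPM were not detectable at this depth.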
